A study of Mus musculus with 9 samples.

Results

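Complexes III and IV and ATP synthase are the last steps of oxidative phosphorylation in the inner mitochondrial membrane. Complex III passes electrons from ubiquinol to cytochrome c, complex IV (cytochrome c oxidase) passes them on to oxygen, and both pump protons that drive the rotation of ATP synthase. Complexes III and IV and ATP synthase each include subunits encoded in mitochondrial DNA, and the other subunits come from nuclear genes. Several of these exist as isoform genes used in different tissues, such as Cox6a1 in most tissues and Cox6a2 in heart and skeletal muscle. B cells that are activated to divide raise their mitochondrial mass and respiration.

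The genes described here are the nuclear genes of these complexes whose symbols begin with Uqcr, with Cox followed by a subunit number from 4 to 8 and a letter, or with Atp5, together with Cyc1. In the deposited table of 17596 genes, 41 genes met this rule, 9 for complex III, 15 for complex IV and 17 for ATP synthase. None of the genes encoded in mitochondrial DNA (0 of those searched for) was found in the table, so these were not analysed here. RNA sequencing had been performed on 9 libraries of primary splenic B cells from mice of 6 to 8 weeks. Control cells came from Mb1Cre mice, which carry the Cre recombinase in the Mb1 (Cd79a) locus and express it from early B cell development on. Mct1-deficient cells came from Mct1f/f Mb1Cre mice (titled Mctf/fMb1Cre and given the genotype cKO in the labels), which carry the same Cre and in which loxP sites had been inserted at exon 1 and intron 3 of Mct1, the gene of the monocarboxylate transporter MCT1, so that both groups carried Cre. Cells were sequenced untreated on day 0 (2 control and 2 Mct1-deficient libraries) or after culture for 3 days in which LPS at 10 μg/ml and 50 ng/ml of IL-4 activated them (2 control and 3 Mct1-deficient libraries).

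Levels are given in FPKM (fragments per kilobase of transcript, scaled to the mapped fragments of the library), a scale on which genes can be compared per length. Mct1, listed as Slc16a1, had 22.6 and 23.0 FPKM in the day 3 control libraries and 10.8, 9.81 and 9.50 FPKM in the day 3 Mct1-deficient libraries. On day 0 the control libraries had 4.33 and 3.80 FPKM and the Mct1-deficient libraries 3.71 and 4.06 FPKM, so that the genotypes overlapped. The 6 B cell markers Cd79a, Cd79b, Ms4a1, Cd22, Pax5 and Blk summed to between 3774 and 4197 FPKM on day 0 and between 1819 and 1912 FPKM on day 3. The 10 myeloid markers summed to between 1140 and 2000 FPKM on day 0 and between 25.6 and 38.1 FPKM on day 3, and 7 erythroid markers to between 126 and 232 FPKM and between 4.34 and 7.95 FPKM, so day 0 libraries held RNA of other blood cells whose part in the changes between the days was not tested. The 10 T and NK cell markers summed to between 101 and 119 FPKM on day 0 and between 87.7 and 101 FPKM on day 3. Gzma, which made up most of the day 3 sum, had 35.4 to 42.0 FPKM on day 0 and 79.5 to 92.5 FPKM on day 3. Of the 10 markers, 6 had a day 3 mean at least 10-fold below that of day 0. In such bulk RNA, fewer cells of a type and less RNA per cell cannot be told apart. The Y-linked gene Ddx3y was at 0.24 and 0.02 FPKM in the day 0 control libraries and 14.7 and 16.5 FPKM in the day 3 control libraries, and 31.1 and 0.20 FPKM in the day 0 Mct1-deficient libraries, so the sex of the mice differed between the control libraries of the 2 days. The labels do not say which libraries came from separate mice, and the p-values therefore measure the spread between these libraries.

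In the promoters of the genes, the letters of known binding motifs were searched on both strands. RefSeq held a promoter of 300 bases (250 before and 50 after the start of the gene, GRCm38.p6) for 31 of the 41 genes. The promoters of Atp5g1, Cox5a and Atp5b are shown because these genes had the largest increases on activation among the genes with a promoter and a mean of at least 5 FPKM, and those of Atp5k and Atp5g2 because they had the largest increases among those with the NRF1 letters. Capitals mark the motifs found, which are the E-box CACGTG in Atp5g1, overlapping copies of the NRF1 motif GCGCATGC on opposite strands in Atp5k and Atp5g2, and the ETS motif CCGGAAG on the opposite strand in Atp5k. The windows are chr11:96075582-96075881 on the minus strand for Atp5g1, chr9:57520982-57521281 on the plus strand for Cox5a, chr10:128083057-128083356 on the plus strand for Atp5b, chr5:108434350-108434649 on the minus strand for Atp5k and chr15:102670998-102671297 on the minus strand for Atp5g2. The Atp5g2 window lies wholly inside the gene as annotated in GENCODE M21 (chr15:102662864-102672352), so it is not at the outermost annotated start.
Atp5g1: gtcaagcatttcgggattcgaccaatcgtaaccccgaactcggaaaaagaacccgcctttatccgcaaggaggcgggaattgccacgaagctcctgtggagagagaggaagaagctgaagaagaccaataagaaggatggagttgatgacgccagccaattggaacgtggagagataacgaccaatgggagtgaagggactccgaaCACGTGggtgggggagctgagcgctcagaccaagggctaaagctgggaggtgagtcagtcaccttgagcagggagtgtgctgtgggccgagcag
Cox5a: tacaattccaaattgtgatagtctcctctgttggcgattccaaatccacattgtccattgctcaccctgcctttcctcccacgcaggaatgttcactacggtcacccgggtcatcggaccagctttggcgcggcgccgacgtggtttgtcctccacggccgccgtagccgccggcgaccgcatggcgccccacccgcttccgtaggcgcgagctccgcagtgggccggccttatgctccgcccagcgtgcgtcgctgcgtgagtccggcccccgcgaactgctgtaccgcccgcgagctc
Atp5b: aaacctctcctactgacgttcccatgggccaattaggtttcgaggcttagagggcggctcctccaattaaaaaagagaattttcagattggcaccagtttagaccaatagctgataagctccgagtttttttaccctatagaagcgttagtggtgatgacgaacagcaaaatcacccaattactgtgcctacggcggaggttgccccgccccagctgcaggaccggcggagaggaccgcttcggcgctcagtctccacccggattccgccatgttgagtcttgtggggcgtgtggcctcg
Atp5k: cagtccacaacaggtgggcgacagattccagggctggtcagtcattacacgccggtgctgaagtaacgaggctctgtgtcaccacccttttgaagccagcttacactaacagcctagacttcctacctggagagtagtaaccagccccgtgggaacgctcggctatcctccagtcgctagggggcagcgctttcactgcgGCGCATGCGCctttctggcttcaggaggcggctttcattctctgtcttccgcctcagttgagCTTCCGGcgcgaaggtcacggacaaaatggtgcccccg
Atp5g2: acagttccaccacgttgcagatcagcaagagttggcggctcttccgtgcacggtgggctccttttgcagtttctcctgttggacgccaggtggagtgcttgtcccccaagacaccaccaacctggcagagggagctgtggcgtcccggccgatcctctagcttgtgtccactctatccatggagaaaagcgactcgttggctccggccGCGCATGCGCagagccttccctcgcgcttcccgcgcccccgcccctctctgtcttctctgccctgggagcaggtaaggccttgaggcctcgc

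NRF1 and the ETS factor GABP are activators known for their sites in genes of respiratory subunits. The NRF1 letters GCGCATGC were in 6 of the 31 promoters (19.4%), those of Atp5g2, Atp5k, Atp5l, Cox6a1, Uqcr11 and Uqcrc1, against 3.05% of all 27025 promoters and 6.36% of the 8790 promoters of tested genes. The ETS letters CCGGAAG were in 11 (35.5%), against 9.93% and 22.1%. The YY1 letters AAGATGGC were in 3 (9.68%, against 3.19% and 5.72%), the E-box in 4 (12.9%, against 8.09% and 12.1%) and the CRE letters TGACGTCA in 1 promoter, that of Uqcrfs1 (3.23%, against 2.03% and 3.68%). At least 1 of the 5 motifs was in 18 promoters (58.1%), against 22.6% and 41.0%. These are matches of letters in 1 window, and the promoters of Cox5a and Atp5b, 2 of the genes that rose most, held none of the 5.

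On activation, most genes of the 3 complexes rose. A gene was called when its adjusted p was under 0.05 and its log2 fold change, computed on log2(FPKM + 1), exceeded 0.5 in size, in limma fitted to all 10823 genes that averaged 1 FPKM or more. Of the 41 genes, 40 passed this filter, and Cox4i2, the second isoform of subunit IV, did not (0 to 0.59 FPKM). In control cells 31 of the 40 were called higher and 0 lower, whereas 24.8% of all tested genes were called higher and 33% lower. At an unadjusted p under 0.05 also 0 of the 40 were lower, against 47.9% of all tested genes. In Mct1-deficient cells 28 were called higher and 1 lower, against 23.4% and 33.2% of all tested genes. The median log2 fold change of the 40 genes was 0.72 in control and 0.66 in Mct1-deficient cells, and that of all tested genes was -0.12 and -0.14. Scaling the libraries moved both medians, that of the 40 genes to between 0.52 and 0.93 and that of all genes to between -0.31 and 0.065 in control cells, and 37 to 39 of the 40 genes stayed above the median of all genes.

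**Figure D1:**
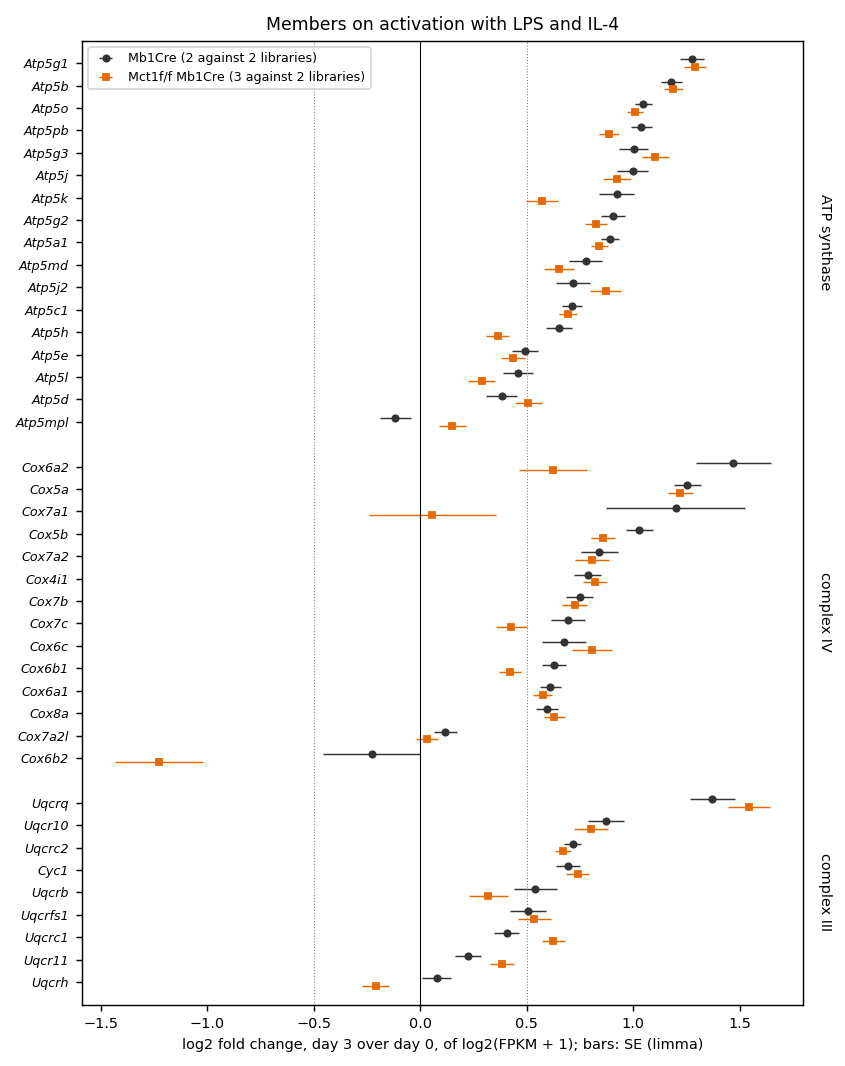
Log2 fold change of each of the 40 tested genes between day 3 and day 0 (horizontal axis, on log2(FPKM + 1)) in Mb1Cre (black circles) and Mct1f/f Mb1Cre cells (orange squares), with the standard error from limma as bars and dotted lines at the limit of 0.5. Most points lie right of the limit in both genotypes, and Cox6a2, Cox7a1 and Cox6b2 show the widest gaps between the genotypes.

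**Figure D2:**
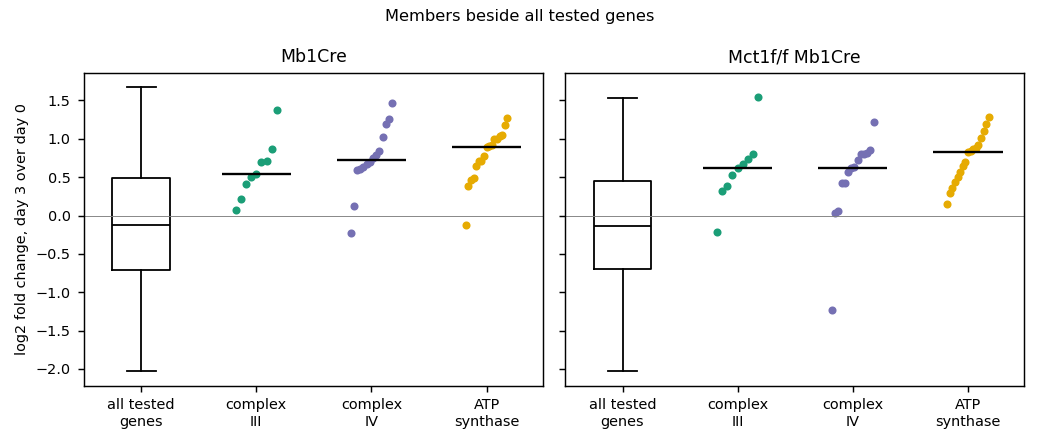
Log2 fold change between day 3 and day 0 (vertical axis) for all 10823 tested genes (box from the lower to the upper quartile, line at the median, whiskers at percentiles 5 and 95) and for the single genes of complex III, complex IV and ATP synthase (points, with a line at the median), in each genotype. In Mb1Cre cells the medians were -0.12 for all genes and 0.54, 0.72 and 0.89 for the 3 complexes.

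ATP synthase had the largest median change. Of its 17 genes, 13 were called higher in each genotype, and the median log2 fold change was 0.89 in control and 0.82 in Mct1-deficient cells. Atp5b, the catalytic beta subunit of the F1 head, had the highest level of all 41 genes on both days, with 322 and 296 FPKM in control and 296 and 305 FPKM in Mct1-deficient libraries on day 0. On day 3 it had 709 and 690 FPKM in control and 681, 683 and 692 FPKM in Mct1-deficient libraries. Every day 3 library was above every day 0 library, and the log2 fold change was 1.18 (SE 0.048, adjusted p 1.22e-09 in limma) in control and 1.19 (SE 0.044) in Mct1-deficient cells.

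Atp5g1, one of the genes for the c subunit whose ring turns in the membrane, had 76.4 and 73.5 FPKM in control and 74.8 and 80.2 FPKM in Mct1-deficient libraries on day 0, and 190 and 176 FPKM against 190, 199 and 184 FPKM on day 3. Its log2 fold change was 1.28 (SE 0.057, adjusted p 2.39e-09 in limma) in control and 1.29 (SE 0.052) in Mct1-deficient cells. Atp5g1, Atp5g2 and Atp5g3 encode the same mature c subunit behind different import signals. Atp5g2 gave the largest share of their summed FPKM, 55.3% to 57.7% on day 0 and 48.9% to 52.0% on day 3, and that of Atp5g1 was 18.2% to 18.7% on day 0 and 22.0% to 23.4% on day 3. These ranges did not overlap between the days, whereas that of Atp5g3 did (23.7% to 26.3% and 25.9% to 27.7%). Between the genotypes on day 3 the shares of Atp5g1 overlapped and those of Atp5g2 did not, at 51.9% and 52.0% in control and 48.9%, 50.9% and 51.6% in Mct1-deficient libraries. This gap was smaller than the spread of the Mct1-deficient libraries and was not tested.

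The other genes of the F1 head and the stalk had log2 fold changes of 0.38 to 1.05 in control cells. Atp5a1, the alpha subunit, rose by 0.89 on the log2 scale in control cells (SE 0.042) and Atp5c1, the central gamma subunit, by 0.71 (SE 0.045). The small F1 subunits delta (Atp5d) and epsilon (Atp5e) had log2 fold changes of 0.38 (SE 0.071) and 0.49 (SE 0.062) and were under the limit in control cells. Atp5d had 183 and 199 FPKM in control libraries on day 0 and 265 and 233 FPKM on day 3, and in Mct1-deficient libraries 179 and 190 FPKM and then 248, 266 and 276 FPKM, where its change of 0.51 (SE 0.065) passed the limit. In the peripheral stalk, which holds the head still, Atp5o (OSCP) rose by 1.05, Atp5pb (subunit b) by 1.04, Atp5j (F6) by 1.00 and Atp5h (subunit d) by 0.65 in control cells. Atp5h had a change of 0.36 (SE 0.055) in Mct1-deficient cells, below the limit.

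Among the membrane subunits, Atp5k (e), Atp5md and Atp5j2 (f) rose by 0.92, 0.78 and 0.72 in control cells, and Atp5l (g) had a change of 0.46, below the limit. Atp5mpl, a small accessory subunit, had 86.5 and 87.4 FPKM in control libraries on day 0, then 83.1 and 77.2 FPKM on day 3. The Mct1-deficient libraries had 76.0 and 88.9 FPKM and then 90.8, 96.2 and 87.4 FPKM. It was the ATP synthase gene with the smallest change in both genotypes, -0.12 (SE 0.072, adjusted p 0.15 in limma) and 0.15 (SE 0.066, adjusted p 0.050).

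Complex IV had 14 tested genes, of which 12 were called higher in control cells and 9 higher and 1 lower in Mct1-deficient cells, with medians of 0.72 and 0.63. Cox5a, a nuclear subunit found in every form of the enzyme, had 88.4 and 86.1 FPKM in control and 81.0 and 90.8 FPKM in Mct1-deficient libraries on day 0. On day 3 it had 217 and 202 FPKM in control and 194, 212 and 198 FPKM in Mct1-deficient libraries. The day 3 libraries were above all day 0 libraries, and its log2 fold change was 1.25 (SE 0.063, adjusted p 6.29e-09 in limma) and 1.22 (SE 0.057) in the 2 genotypes. Cox5b, the zinc-binding subunit, rose by 1.03 and 0.86, and Cox4i1, the main isoform of subunit IV, by 0.79 and 0.82.

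The remaining main subunits moved over a narrow range. Cox6a1, Cox6b1, Cox6c, Cox7a2, Cox7b, Cox7c and Cox8a rose by 0.59 to 0.84 in control cells. In Mct1-deficient cells Cox6a1, Cox6c, Cox7a2, Cox7b and Cox8a were called higher, and Cox6b1 (0.42, SE 0.052) and Cox7c (0.43, SE 0.072) were below the limit. Cox8a had the highest mean level in the complex, in control cells 269 FPKM on day 0 rising to 407 FPKM. Cox7a2l, whose protein can join complex III and complex IV into supercomplexes, had 192 and 201 FPKM in control libraries on day 0 and 220 and 207 FPKM on day 3, and 205 and 203 FPKM and then 211, 218 and 197 FPKM in Mct1-deficient libraries. Its changes of 0.12 (SE 0.054, adjusted p 0.063 in limma) and 0.031 (SE 0.050, adjusted p 0.57) did not pass the test.

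Complex III had 9 tested genes, with 6 called higher in each genotype and medians of 0.54 and 0.62. Uqcrq, an accessory subunit, had the lowest level of the complex on day 0, 23.3 and 22.8 FPKM in control and 19.8 and 22.1 FPKM in Mct1-deficient libraries. On day 3 it had 65.1 and 57.5 FPKM in control and 53.6, 68.2 and 67.6 FPKM in Mct1-deficient libraries. This was a rise of 1.37 (SE 0.11, adjusted p 2.84e-07 in limma) in control and 1.54 (SE 0.097) in Mct1-deficient cells. Uqcr10, another accessory subunit, had 84.7 and 81.4 FPKM in control libraries on day 0 and 148 and 157 FPKM on day 3, and 70.8 and 87.4 FPKM and then 133, 147 and 134 FPKM in Mct1-deficient libraries, with changes of 0.87 (SE 0.086) and 0.80 (SE 0.078).

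The catalytic subunits of complex III rose as well. Cyc1, the cytochrome c1 that hands electrons to cytochrome c, rose by 0.69 in control and 0.74 in Mct1-deficient cells, and Uqcrfs1, the Rieske iron-sulfur protein, by 0.51 and 0.53. Of the core proteins, Uqcrc2 rose by 0.72 and 0.67, and Uqcrc1 had a change of 0.41, below the limit, in control cells and rose by 0.62 in Mct1-deficient cells. Uqcrb, an accessory subunit, rose by 0.54 in control cells and had a change of 0.32 in Mct1-deficient cells.

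Uqcrh and Uqcr11 had the smallest changes of complex III in control cells. Uqcrh, the hinge protein between cytochrome c1 and cytochrome c, had 143 and 136 FPKM in control libraries on day 0 and 152 and 143 FPKM on day 3, where its change was 0.077 (SE 0.068, adjusted p 0.31 in limma). In Mct1-deficient libraries it had 155 and 172 FPKM on day 0, then 152, 138 and 134 FPKM on day 3, a change of -0.21 (SE 0.062, adjusted p 0.0084), below the limit in size. Uqcr11 had 70.1 and 70.2 FPKM in control libraries on day 0 and 85.8 and 78.3 FPKM on day 3, with changes of 0.22 (SE 0.061) and 0.39 (SE 0.056).

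The summed FPKM of all 41 genes was between 4669 and 4977 in the 4 day 0 libraries and between 7645 and 8201 in the 5 day 3 libraries. As a share of the FPKM total of a library, this was 0.962% to 1.01% on day 0 and 1.40% to 1.46% on day 3. On day 3 the sum was 7923 ± 393 FPKM (SD, n = 2) in control and 7766 ± 133 FPKM (SD, n = 3) in Mct1-deficient libraries, and the ranges overlapped. ATP synthase gave more than complex IV, and complex IV more than complex III, in every library.

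**Figure D3:**
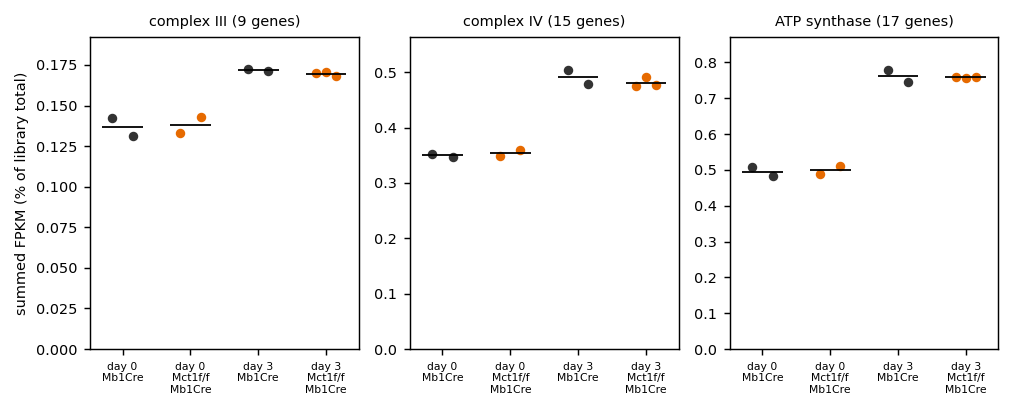
Summed FPKM of the genes of complex III, complex IV and ATP synthase as a percentage of each library's FPKM total (vertical axis, from 0), with 1 point per library and a line at the group mean, for Mb1Cre (black) and Mct1f/f Mb1Cre (orange). For all 41 genes together the share was 0.962% to 1.01% on day 0 and 1.40% to 1.46% on day 3, with both genotypes side by side on each day.

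The 2 activation contrasts share no library. Over the 40 genes their log2 fold changes were correlated with r = 0.77 (Pearson) and rho = 0.76 (Spearman), given as a description across genes that are not independent replicates. Of the genes called higher, 26 were called in both genotypes, 5 in control cells alone (Uqcrb, Cox6b1, Cox7a1, Cox7c and Atp5h) and 2 in Mct1-deficient cells alone (Uqcrc1 and Atp5d). A call in 1 genotype alone is not a difference between them. The test of that difference, the interaction of genotype and day, called 1 of the 40 genes lower, Cox6a2, and 0 higher, against 2.22% and 1.02% of all tested genes. At an unadjusted p under 0.05 the interaction was positive in 2 and negative in 9 of the 40 genes, against 10.7% and 14.7% of all tested genes.

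On day 3, the genotypes differed little over these genes. Of the 40 genes, 0 were called higher and 1, Cox6a2, lower in Mct1-deficient cells, against 0.887% and 1.53% of all tested genes. By the adjusted p alone Cox6a2 was still the 1 gene called, against 6.03% higher and 9.21% lower among all tested genes. At an unadjusted p under 0.05, 1 of the 40 genes was higher and 4 lower, against 12.2% and 16.8% of all tested genes. The median log2 difference was -0.040 for the 40 genes and -0.010 for all tested genes. Beside Cox6a2, the log2 differences lay between -0.53 (Cox6b2) and 0.19 (Atp5mpl), and values that miss the threshold do not show that the genotypes were equal.

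In 8 genes the day 3 libraries of the genotypes did not overlap. Atp5mpl and Cox6c were above control in all 3 Mct1-deficient libraries (2 of 40, against 21% of all tested genes), and Cox6a2, Cox7c, Atp5h, Atp5o, Uqcrc2 and Uqcr10 were below (6 of 40, against 26.1%). Cox7c had 330 and 315 FPKM in control and 286, 305 and 253 FPKM in Mct1-deficient libraries, a log2 difference of -0.20 (SE 0.072, adjusted p 0.086 in limma). Atp5h had 263 and 236 FPKM against 233, 217 and 223 FPKM, a difference of -0.15 (SE 0.055, adjusted p 0.089), and Atp5mpl, whose values are given above, had a difference of 0.19 (SE 0.066, adjusted p 0.081). The control libraries themselves were not alike, since replicate 1 was above replicate 2 in 37 of the 40 genes (44.5% of all tested genes), by a median ratio of 1.08. Without control replicate 1 the median difference of the 40 genes was 0.012, and without replicate 2 it was -0.074.

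**Figure D4:**
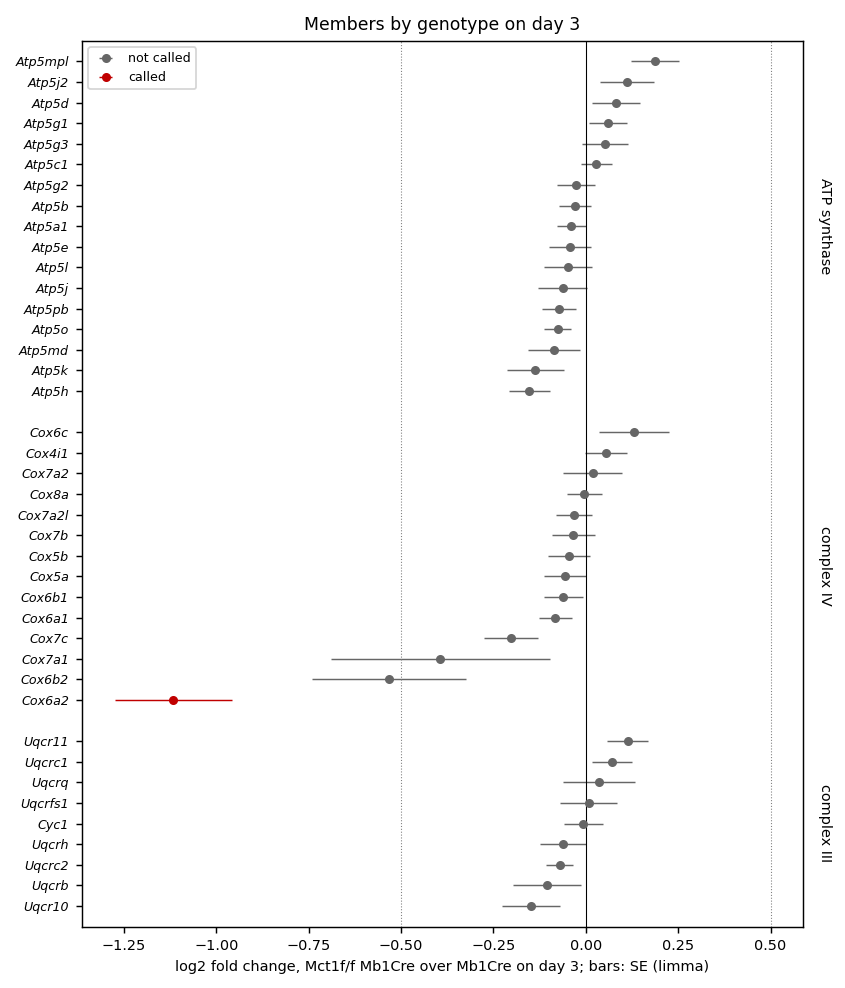
Log2 fold change of Mct1f/f Mb1Cre over Mb1Cre on day 3 for each of the 40 tested genes (horizontal axis), with the standard error from limma as bars and dotted lines at the limit of 0.5. Cox6a2, at -1.12, is the 1 called gene (red), Cox6b2 and Cox7a1 have wide error bars, and the other genes lie between -0.20 and 0.19.

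Cox6a2 was the gene in which the genotypes parted. It encodes the form of subunit VIa known from heart and skeletal muscle, and lies at chr7:128205435-128206387 on the minus strand (GENCODE M21, GRCm38) in 3 exons. On day 3 it had 29.2 and 27.7 FPKM in control libraries and 9.94, 14.7 and 13.6 FPKM in Mct1-deficient libraries, and the groups did not overlap. On day 0 it had 8.97 and 10.3 FPKM in control and 6.42 and 9.48 FPKM in Mct1-deficient libraries, which overlapped. The day 3 means were 28.4 ± 1.08 FPKM (SD, n = 2) and 12.7 ± 2.48 FPKM (SD, n = 3), so that the Mct1-deficient mean was 44.8% of the control mean. The log2 difference was -1.12 (SE 0.16, adjusted p 0.0011 in limma), and it was called in all 20 alternatives run, with adjusted p from 0.00033 to 0.020. An exact permutation test of the FPKM gave p = 0.10, two-sided, which is the smallest p that 3 against 2 libraries allow. On day 0 the log2 difference was -0.27 (SE 0.17, adjusted p 0.60 in limma).

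Between the days Cox6a2 rose by 1.47 (SE 0.17, adjusted p 1.06e-05 in limma) in control cells, the largest change of the 40 genes, and by 0.62 (SE 0.16, adjusted p 0.0035) in Mct1-deficient cells. The second value fell to 0.37 (adjusted p 0.052) without Mct1-deficient day 0 replicate 1, and to 0.46, below the limit, with libraries scaled to the same total. The interaction was -0.85 (SE 0.24, adjusted p 0.049 in limma). It held in 7 of 19 alternatives, with adjusted p from 0.017 to 0.17, and among the 9 fits that left out 1 library it was called in 2, without Mct1-deficient day 0 replicate 1 and without Mct1-deficient day 3 replicate 2. The log2 interaction lay between -1.10 and -0.60 in these 19 alternatives.

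Cox6a1, the isoform of most tissues, at chr5:115345642-115348981, was far higher and showed no such gap. It had 224 and 227 FPKM in control and 221 and 216 FPKM in Mct1-deficient libraries on day 0, and 360 and 331 FPKM against 318, 333 and 327 FPKM on day 3. Its day 3 log2 difference was -0.082 (SE 0.044, adjusted p 0.26 in limma). Cox6a2 made up 7.50% and 7.73% of the summed FPKM of the pair in day 3 control libraries and 3.03%, 4.23% and 3.98% in day 3 Mct1-deficient libraries, and on day 0 3.85% and 4.35% against 2.82% and 4.20%. The share on day 3 in Mct1-deficient cells was thus within reach of the shares on day 0.

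**Figure D5:**
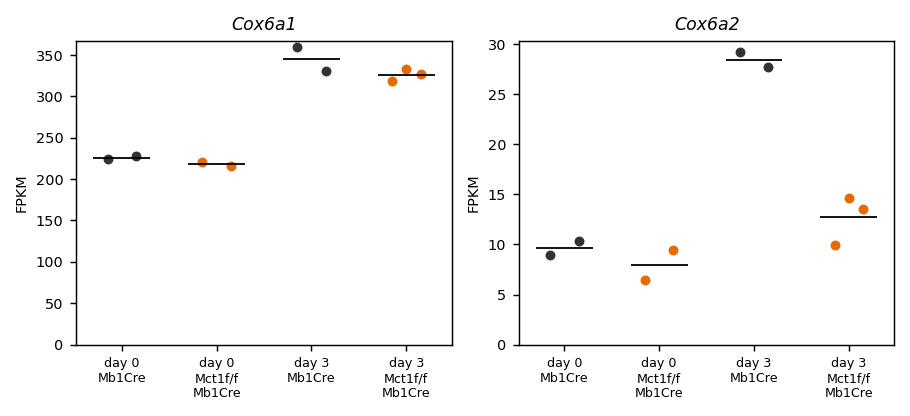
FPKM of Cox6a1 (left) and Cox6a2 (right) in each library (points) with the group mean (line), for Mb1Cre (black) and Mct1f/f Mb1Cre (orange) on day 0 and day 3, each vertical axis starting at 0. Cox6a2 was at 29.2 and 27.7 FPKM in the day 3 control libraries and at 9.94 to 14.7 FPKM in the day 3 Mct1-deficient libraries, whereas Cox6a1 overlapped.

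The reads counted for Cox6a2 could come from other sources, for which values are given here. Its exons overlap those of Itgad, an integrin gene on the opposite strand, and the sources used here do not say whether reads were counted by strand, so reads of the 2 genes cannot be told apart. Itgad had 16.9 to 21.4 FPKM in the day 0 libraries and 0 to 0.03 FPKM in the day 3 libraries. Striated muscle markers (Ckm, Actc1, Myh6, Myh7 and Tnnt2, of 6 listed) summed to between 0.40 and 1.16 FPKM in all libraries. Cox6a2 is also known as a gene of plasmacytoid dendritic cells, and of 5 genes of these cells listed after the values of Cox6a2 were seen, Siglech, Klk1, Cd209d and Ccr9 were at 0 to 0.11 FPKM in every day 3 library. On day 0 Siglech had 20.8 and 21.8 FPKM in control and 15.5 and 16.8 FPKM in Mct1-deficient libraries. The fifth, Ly6d, which B cells also express, had 154 and 139 FPKM in day 3 control and 250, 255 and 239 FPKM in day 3 Mct1-deficient libraries. The summed level of the 5 genes was 1071 to 1275 FPKM on day 0. On day 3 it was 139 to 154 FPKM in control and 239 to 256 FPKM in Mct1-deficient libraries. Most of this sum was Ly6d in every library. Myeloid markers on day 3 summed to 25.6 to 28.0 FPKM in control and 33.7 to 38.1 FPKM in Mct1-deficient libraries. Lyz2, Adgre1, Itgam, Csf1r and Cd68 of that list were above control in every Mct1-deficient library, and S100a8, S100a9, Mpo, Elane and Csf3r overlapped. The part of other cells in the Cox6a2 values was not tested.

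The other tissue isoforms were low. Cox6b2, the form of subunit VIb known from testis, at chr7:4751792-4753094, had 2.84 and 2.97 FPKM in control libraries on day 0, then 2.87 and 1.87 FPKM on day 3. The Mct1-deficient libraries had 5.44 and 3.51 FPKM on day 0, then 0.88, 2.05 and 1.13 FPKM on day 3, and the days did not overlap. It was the 1 gene called lower on activation, with a log2 fold change of -1.23 (SE 0.21, adjusted p 0.00019 in limma) in Mct1-deficient cells against -0.23 (SE 0.23, adjusted p 0.36) in control cells, and its interaction of -0.998 (SE 0.31) had an adjusted p of 0.071. The higher day 0 value came from the library in which S100a8 and S100a9, neutrophil genes, were also highest, at 304 and 514 FPKM. The same library had the highest Ddx3y, at 31.1 FPKM. In the Mct1-deficient library with 3.51 FPKM of Cox6b2, S100a8 and S100a9 (125 and 187 FPKM) lay between the day 0 control libraries (107 and 131 FPKM, and 166 and 232 FPKM). The part of other cells and of sex in the Cox6b2 values was not tested. Cox6b1 had 160 and 170 FPKM in control and 182 and 183 FPKM in Mct1-deficient libraries on day 0, and 269 and 242 FPKM against 253, 237 and 244 FPKM on day 3, so that Cox6b2 was 0.346% to 2.90% of the pair.

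Cox7a1, the heart and muscle form of subunit VIIa, had 0.70 and 0.17 FPKM in control and 1.75 and 1.04 FPKM in Mct1-deficient libraries on day 0, and 3.96 and 1.11 FPKM against 1.26, 1.42 and 1.73 FPKM on day 3. Its rise of 1.20 (SE 0.33, adjusted p 0.0051 in limma) in control cells rests on levels near the filter of 1 FPKM and on day 3 libraries that differed more from each other than replicate 2 did from day 0. Cox7a2, its counterpart in other tissues, rose from 40.1 and 39.7 FPKM to 76.0 and 68.6 FPKM in control and from 37.6 and 45.7 FPKM to 70.9, 78.8 and 70.1 FPKM in Mct1-deficient libraries. Cox4i2, the form of subunit IV known from lung, stayed at or below 0.147% of the pair with Cox4i1. Cox4i1 had 204 and 227 FPKM in control and 212 and 224 FPKM in Mct1-deficient libraries on day 0, and 386 and 357 FPKM against 374, 400 and 384 FPKM on day 3.

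On day 0 the genotypes were not told apart over these genes. In limma 0 of the 40 genes were called higher and 0 lower, against 0.24% and 0.037% of all tested genes, and the median log2 difference was 0.011. At an unadjusted p under 0.05, 5 of the 40 were higher and 1 lower, against 6.69% and 5.04% of all tested genes. Uqcrh had the smallest p, with a difference of 0.22 (SE 0.068, adjusted p 0.25), followed by Cox6b1 with 0.15 (SE 0.057, adjusted p 0.35). Here the Mct1-deficient libraries differed from each other, since replicate 2 was above replicate 1 in 34 of the 40 genes, against 50.7% of all tested genes. Without replicate 1 the median difference was 0.068, and without replicate 2 it was -0.035. Atp5h had the next smallest p after Cox6a2 for the interaction, -0.29 (SE 0.082, adjusted p 0.052 in limma), with 163 and 154 FPKM in control and 169 and 180 FPKM in Mct1-deficient libraries on day 0.

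Other genes of the same machinery moved to different extents. Of 36 complex I subunits 24 were called higher and 0 lower in control cells on activation, with a median of 0.70, and of 4 complex II subunits 2 were called higher (Sdhb and Sdhd). Cycs, the cytochrome c that carries electrons from complex III to complex IV, rose by 1.47 in control and 1.14 in Mct1-deficient cells, and Ndufa4, now counted as a subunit of complex IV, had a change of 0.48, below the limit, and rose by 0.58 in Mct1-deficient cells. Mitochondrial ribosomal proteins had 57 of 78 called higher and 1 lower (median 0.72), and cytosolic ribosomal proteins 58 of 96 and 4 lower (median 0.60). These lists stand beside the same background of 24.8% higher and 33% lower among all tested genes.

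Genes that assemble and regulate the complexes went in both directions. Among complex IV assembly factors 8 of 23 were called higher and 1 lower in control cells, with a median of 0.35. Sco1, a copper carrier for complex IV, rose by 2.15, Higd1a by 1.45 and Cox18 by 0.92, and Cox20, a chaperone for a mitochondrially encoded subunit, fell by 1.03 on the log2 scale. Of 6 complex III assembly factors 1 was called higher, Uqcc2 by 0.93, and of 5 ATP synthase assembly factors and inhibitors 3 were called higher, Atpif1, the inhibitory factor, by 1.16, Tmem70 by 0.74 and Atpaf1 by 0.65. Regulators of respiratory genes were mixed, with 2 of 13 called higher (Tfb1m by 1.17 and Myc by 0.65) and 3 lower. Esrra, a nuclear receptor, fell by 1.18, Gabpb2, a partner of the GABP alpha subunit, fell by 0.77, and Polrmt, the mitochondrial RNA polymerase, fell by 0.58 on the log2 scale. Nrf1, whose motif is given above, had a change of -0.20, below the limit.

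On day 3, 0 of the 89 tested genes of complexes I and II, cytochrome c, Ndufa4, the assembly factors and the regulators were called in either direction in limma. By the adjusted p alone 1 of the 89 was higher and 4 were lower, against 6.03% and 9.21% of all tested genes. The higher gene was Pprc1, a coactivator related to PGC-1, with a log2 difference of 0.16 (adjusted p 0.047 in limma). The lower genes were Cox17, the assembly factors Surf1 (-0.23, adjusted p 0.028) and Sco1 (-0.23, adjusted p 0.030), and the complex I subunit Ndufc1 (-0.21, adjusted p 0.042). At an unadjusted p under 0.05, 4 of the 89 were higher and 12 lower, against 12.2% and 16.8% of all tested genes. In the interaction, Cox17, the copper chaperone that hands copper to complex IV assembly, was the 1 assembly factor called. It had 48.0 and 37.7 FPKM in control and 53.8 and 47.8 FPKM in Mct1-deficient libraries on day 0, and 95.0 and 87.6 FPKM against 69.3, 68.5 and 74.6 FPKM on day 3. The day 3 groups did not overlap, with a log2 difference of -0.36 (adjusted p 0.022 in limma) that was below the limit, and the interaction was -0.61 (SE 0.13, adjusted p 0.020). By the adjusted p alone, the interaction of Atpif1 (-0.36, adjusted p 0.025 in limma), Cycs (-0.33, adjusted p 0.041) and Coa6 (0.42, adjusted p 0.046) also passed. The share of all tested genes that passed the interaction by this rule was not computed, so these genes are not set against a background.

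In the genome the 41 genes lie on 18 chromosomes, and 14 of them have an exon that overlaps an exon of another annotated gene. In 13 genes more than 10% of the stretches of 50 bases of the longest transcript also occur in other genes, most often processed pseudogenes, and in Atp5l this reached 68.5%. How reads that match several genes were assigned is not given in the sources used here, so the levels of these 13 genes are uncertain. Among them are Atp5l, Atp5h (47.9%), Uqcrb (43.2%), Atp5o (35.5%) and Cox7c (27.9%). Atp5g2 (14.8%), Cox6a1 (12.3%) and Atp5g1 (10.6%) are also among them, so the isoform shares given above that use these genes are uncertain too. Atp5o also overlaps a second annotated gene of the same name on the same strand. Cox6a2, Uqcrq and Cox6b2 shared no such stretch, and Atp5b 0.857%.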

How the data were processed

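The authors deposited 1 table of FPKM values, rounded to 2 decimals, for 17596 genes in 9 libraries. The sequencing institute did the assembly and analysis of the libraries, and the submitters' processing notes name Bowtie2 and GRCm38 (mm10). Versions, annotation, strand and filters are not given in the sources used here. The labels name TRNzol for RNA extraction and the methods a column kit. Since FPKM hold no counts, depth is unknown and precision rests on 2 or 3 libraries per group.

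Groups came from the sample labels. On log2(FPKM + 1), the 10823 genes averaging 1 FPKM or more entered a limma 3.58.1 fit (R 4.3.3) of the 4 group means, with a variance trend and Benjamini-Hochberg adjustment over all tested genes. The fold change on this scale understates that of low genes. Exact permutation tests used scipy 1.17.1 in Python 3.11.15, and figures matplotlib 3.10.9. In simulated data for the day 3 comparison (10823 genes, 200 changed) 91% of changes of 0.6 on the log2 scale were recovered, 97% of changes of 1 and 100% of changes of 2, and 0.00941% of unchanged genes were called. The noise was drawn for each gene separately. Shifts shared by many genes of 1 library were not simulated, so these rates need not hold for the real libraries. Promoters came from RefSeq and gene positions from GENCODE.

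The genes, lists and alternatives were chosen with earlier results of these data known. Named with values per library were, for each complex, the 2 tested genes with the largest and the 2 with the smallest change on activation in control cells, the 4 genes with the smallest p between genotypes on day 3, 2 each on day 0 and in the interaction, and the tissue isoforms. Genes of the other lists were picked with their values in view. Of the B cell markers, 1 is not reported here. Same-numbered libraries were not paired by the labels, and the correlations of their deviations lay between -0.12 and 0.087.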

Additional observations from a re-analysis of the deposited data

Results flagged for a closer look

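The effect of genotype on Cox6a2 differed between the days by a test of the difference itself, an interaction of -0.85 on the log2 scale (SE 0.24, adjusted p 0.049 in limma). Mct1-deficient libraries had 6.42 and 9.48 FPKM on day 0 against 8.97 and 10.3 FPKM in control, and 9.94, 14.7 and 13.6 FPKM on day 3 against 29.2 and 27.7 FPKM. The call was lost in 12 of 19 alternatives, while the direction was kept in all 19, from -1.10 to -0.60.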

How the results depend on the processing

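Limits are that depth is unknown, groups hold 2 or 3 libraries, and scaling sets the size of the change between the days. With the log2 limit at 1, 10 genes were called higher on activation in control and 6 in Mct1-deficient cells, and 0 were called lower in the interaction. With libraries scaled to the same total, by median of ratios or by quantiles, the median change was 0.52, 0.93 and 0.55 in control and 0.48, 0.88 and 0.55 in Mct1-deficient cells. The counts called higher were 22, 35 and 22 in control and 19, 35 and 22 in Mct1-deficient cells. Genes called lower on activation in Mct1-deficient cells were 0 with a mean of at least 5 FPKM, which leaves 38 of the genes and drops Cox6b2, and 2 with no limit on the fold change, which adds Uqcrh. The interaction called 0 genes lower with a pseudocount of 0.1, with no filter on low values, with median-of-ratios scaling and with quantile normalization, and the cause was not tested. Leaving out 1 library at a time, the interaction called 0 to 2 genes lower, with Cox6b2 added without Mct1-deficient day 3 replicate 2, called alone without Mct1-deficient day 0 replicate 2, and Cox7a1 called without control day 3 replicate 2. On day 3, 1 to 2 genes were called lower, with Cox6b2 added without Mct1-deficient replicate 2 and Cox7a1 without control replicate 2. Under the replicate block, which drops Mct1-deficient day 3 replicate 3, 31 genes were called higher on activation in control and 27 in Mct1-deficient cells, and no other count moved; with the day 0 control numbers crossed, chosen after seeing the data, it was 31 again. Single-gene values stayed on the same side of the threshold in 3948 cases, lost it in 106, gained it in 36 and reversed in 0.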
